A study of Mus musculus with 9 samples.

Results

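Alveolar fibroblasts are the resident mesenchymal cells of the gas-exchange walls of the lung. They are told apart from adventitial fibroblasts, which lie in the cuffs around vessels and airways, by a set of genes for small-molecule enzymes, cell adhesion, signals and a transcription factor. The 10 genes followed here, Inmt, Slc7a10, Limch1, Npnt, Tcf21, Itga8, Ces1d, Gdf10, Wnt2 and Macf1, belong to that identity set. They were taken by their names from the 55302 gene symbols of each library, with no filter on their values. The set was chosen with earlier results of these data known. Slc7a10 and Inmt held 89.1% of the reads counted for the set, although the strand of those reads is not known. Only 3 of the 10 genes had counts high enough to be tested between fibroblasts of doxorubicin-treated and control mice. None of these passed, and neither did any other of the 2604 genes tested.

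The libraries came from fibroblasts sorted as CD45-, EpCAM- and PDGFRa+ from mouse lungs with early metastases, with 5 libraries of mice given doxorubicin (DOX) and 4 of mice given vehicle (PBS, which other labels write as saline). Doxorubicin is an anthracycline that damages DNA. According to the methods, the mice of both groups were females that had carried a mammary tumor, which was removed before the injections, and CD31+ cells were also kept out of the sort. The lungs were taken soon after the last injection. Libraries were made by MARS-seq, which tags transcripts near their 3' end and keeps their strand. Each library is labelled as a biological replicate. The sources used here do not name the mouse strain and tumor line of these 9 libraries.

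The values are normalized counts, the reads of a gene scaled by 1 size factor for each library. Totals were 432322 to 1285816 reads in DOX and 497637 to 734114 reads in PBS. A pair of libraries stood apart. In PBS replicate 4 the sum of 14 granulocyte markers was 1214, against 15.98 to 98.6 in the other 8 libraries, and the sum of 12 pan-immune markers was 331, against 3.71 to 46.0. In the same library 16 lung epithelial markers summed to 490.2, against 16.9 to 179, and 14 general fibroblast genes to 1447, against 1823 to 3125. DOX replicate 2 was the shallowest library, and the ribosomal RNA gene CT010467.1 took 35.3% of it, against 5.74 to 16.8% of the others. The receptor gene used in the gate, Pdgfra, had low counts in every library. Pdgfra was at 0.928 to 8.22 normalized counts in DOX and 0.810 to 12.0 in PBS. The collagen gene Col1a1 was at 1169 to 1785 in DOX and 1027 to 2333 in PBS. The strand limit described beside Slc7a10 holds for Pdgfra too, so that its low counts do not show low expression.

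Of the 10 genes, 9 were above 0 in at least 1 library and Wnt2 was at 0 in all 9. The set held 3910 of the 6303233 reads (0.0620%), 2100 of them in Slc7a10, 1382 in Inmt and 197 in Macf1. These 3 genes reached the level that was tested, a normalized count of 10 in at least 4 libraries. The other 6 averaged 0.836 to 7.48 normalized counts and shared 231 reads, 5.91% of those of the set. In these counts several genes that define alveolar fibroblasts (Npnt, Tcf21, Itga8, Ces1d and Wnt2) were low or at 0. The counts may leave out most reads of a gene's own transcripts, as described beside Slc7a10, and low counts do not show low expression.

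**Figure D1:**
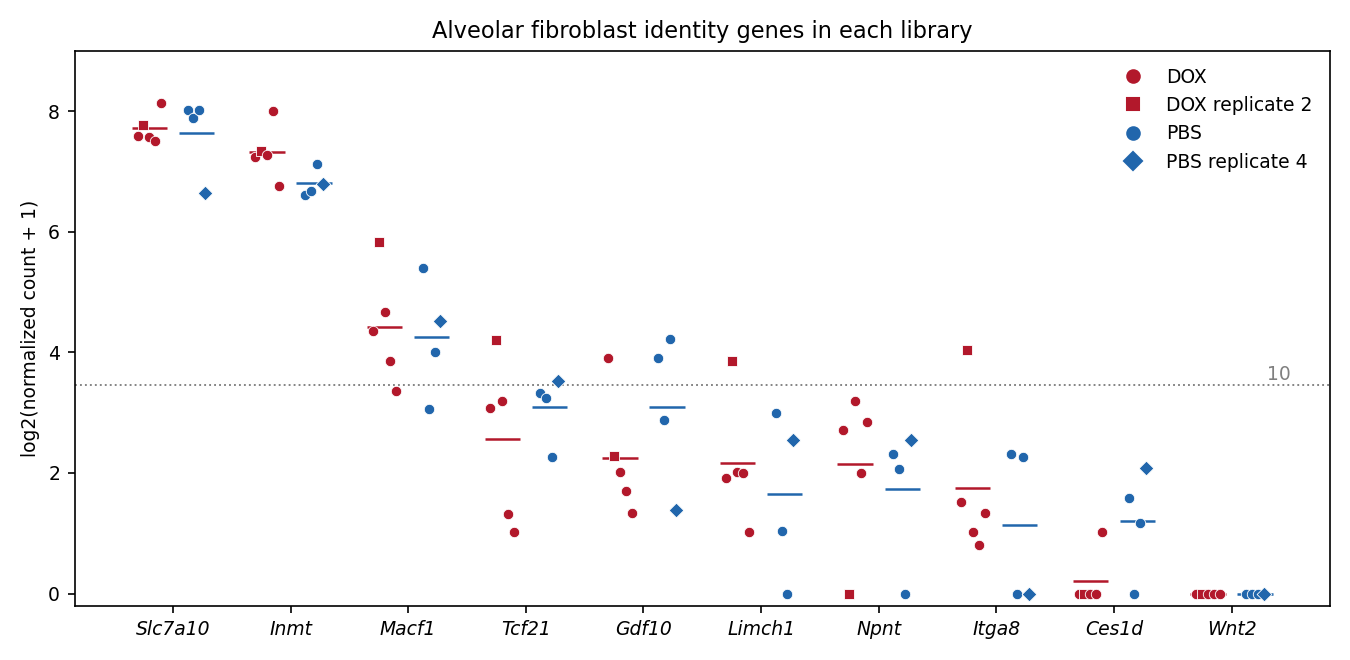
Normalized counts of the 10 genes on the log2(value + 1) scale, with 1 point a library, DOX left of PBS for each gene, bars at the group means on this scale, and a dotted line at the tested level of 10. Slc7a10 and Inmt lie at 96.9 or more in every library, Macf1 at 7.39 to 56.1, and the remaining genes mostly under 10, with the DOX square (replicate 2) highest for Limch1, Tcf21 and Itga8.

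The start sites of Slc7a10 and Inmt, which carry most of the reads, differ in base composition. Both are printed 5' to 3' in the direction of the gene, from 250 bases before to 50 bases after the start site, as RefSeq gives them on GRCm38.p6. The Inmt window is chr6:55174941-55175240 on the minus strand and the Slc7a10 window chr7:35186135-35186434 on the plus strand. Capitals mark the E-box CAGCTG, a sequence that basic helix-loop-helix factors such as TCF21 can bind, and the TATA box TATAAA, both searched on both strands.
Inmt: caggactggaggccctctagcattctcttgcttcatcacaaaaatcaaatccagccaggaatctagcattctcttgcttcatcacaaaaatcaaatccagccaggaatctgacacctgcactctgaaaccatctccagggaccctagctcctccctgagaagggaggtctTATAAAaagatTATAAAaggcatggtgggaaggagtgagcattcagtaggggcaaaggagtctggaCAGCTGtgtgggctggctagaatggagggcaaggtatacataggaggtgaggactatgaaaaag
Slc7a10: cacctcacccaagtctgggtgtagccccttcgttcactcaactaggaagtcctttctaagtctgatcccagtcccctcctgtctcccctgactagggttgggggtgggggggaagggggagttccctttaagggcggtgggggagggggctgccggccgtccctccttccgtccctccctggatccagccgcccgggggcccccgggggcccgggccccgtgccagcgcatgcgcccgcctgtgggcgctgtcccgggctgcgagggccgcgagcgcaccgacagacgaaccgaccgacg
The Inmt window was 47.7% G and C and the Slc7a10 window 70.7%, beside a median of 52.7% over 32851 mouse promoters. Inmt held the E-box 14 bases before its RefSeq start site (position -14) and TATA boxes at -80 and -69, whereas Slc7a10 held none of these. The GENCODE annotation used for gene spans starts Inmt further upstream, at chr6:55175043, inside the printed window. The positions given thus hold for the RefSeq start only. CAGCTG stands in 16.3% of all promoters and TATAAA in 13.6%. Counted by gene, the shares are 18.3% and 15.7%. Of the 9 genes with a promoter entry, Inmt alone held CAGCTG, and Inmt and Limch1 held TATAAA. A match of letters is a description and not a binding site.

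Inmt encodes indolethylamine N-methyltransferase, which puts methyl groups on small amines. It was at 149, 161, 153, 255 and 107 normalized counts in DOX replicates 1 to 5, against 96.9, 101, 138 and 110.2 in PBS replicates 1 to 4. Of the 5 DOX libraries 4 lay above the highest PBS library, and DOX replicate 5 lay among the PBS libraries, so that the groups overlapped. The means were 165 ± 54.3 in DOX (SD, n = 5) and 112 ± 18.2 in PBS (SD, n = 4), a log2 fold change of 0.52 (standard error 0.29, 95% interval -0.09 to 1.13). This did not pass the test (limma, adjusted p = 0.775, over 2604 genes). Without PBS replicate 4 the log2 fold change was again 0.52 (limma, adjusted p = 0.717). The DOX libraries varied by 32.9% of their mean, beyond the 5.42 to 11.0% that read counting alone gives. In bulk samples of this kind, fewer cells of a type and less RNA per cell cannot be told apart.

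Slc7a10 encodes a sodium-independent exchanger of small neutral amino acids, known best from the brain as Asc-1. It was the highest of the set, ranking at 344 of 17428 genes by mean normalized count, a rank that is not corrected for transcript length. It was at 192, 217, 190.0, 182 and 279 normalized counts in DOX, against 259, 234, 259 and 98.8 in PBS. PBS replicate 4 was by far the lowest library, while the other 3 PBS libraries lay within 234 to 259, above 4 of the 5 DOX libraries. With all libraries the means were 212 ± 39.6 in DOX (SD, n = 5) and 213 ± 76.7 in PBS (SD, n = 4), a log2 fold change of 0.07 (standard error 0.30, 95% interval -0.57 to 0.72, limma adjusted p = 0.983). Without PBS replicate 4 the direction turned, at a log2 fold change of -0.26 (standard error 0.25, 95% interval -0.78 to 0.27), and the test was again not passed (limma, adjusted p = 0.852). The granulocyte, immune and epithelial markers given above moved with that low value, and their part in it was not tested.

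Slc7a10 was the only gene of the set whose 3' end lies over exons of a gene on the other strand. Slc7a10 spans chr7:35186385-35201114 on the plus strand of mm10, and Lrp3, which encodes a receptor of the LDL receptor family, spans chr7:35200027-35215498 on the minus strand. The genes meet tail to tail. Lrp3 exons cover 377 exonic bases of Slc7a10 and 538 bases of the last 1 kb of the gene, the stretch where a 3' tag falls. Lrp3 was at 76.1, 27.1, 165, 191 and 138 normalized counts in DOX, against 67.9, 50.7, 149 and 179.9 in PBS (limma, adjusted p = 0.999). Within each group Lrp3 was highest where Slc7a10 was lowest, in DOX replicate 4 and PBS replicate 4. The sources used here do not give the strand setting of the authors' count. Reads listed as Slc7a10 may thus be reads of Lrp3, and the values of every gene may leave out most of its own reads.

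**Figure D2:**
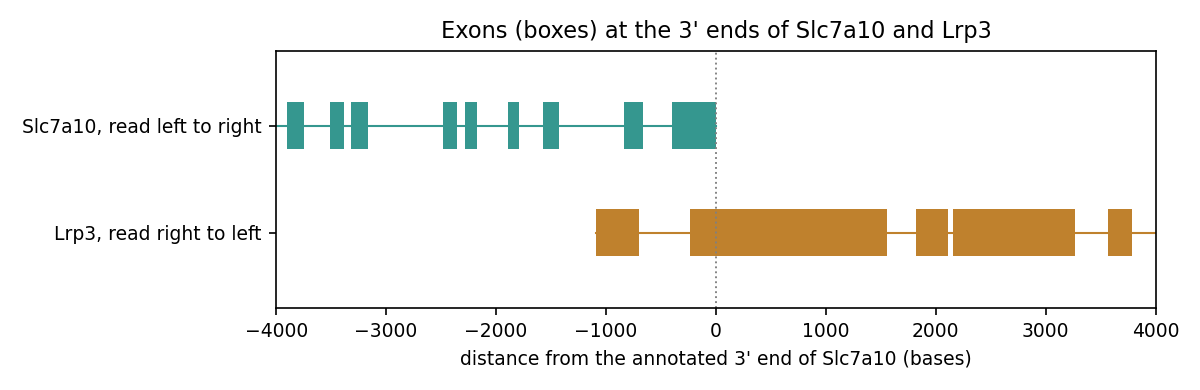
Exons of Slc7a10 (upper row) and Lrp3 (lower row) as boxes, drawn to scale against the distance in bases from the annotated 3' end of Slc7a10. The last exon of Slc7a10, from -396 to 0, is overlapped by an Lrp3 exon from -236 to 1555, and another Lrp3 exon lies at -1087 to -699.

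The same arrangement was frequent among genes that reached the tested level. Of the protein-coding genes tested, 930 of 2155 (43.2%) had an exon of the other strand within their last 1 kb, against 1285 of 19526 (6.58%) of those not tested and 335 of 8536 (3.92%) of those at 0 in all libraries. Inmt, tested as well, had no such neighbour. The nearest gene, the long non-coding RNA Gm34358 on the other strand, ends 3415 bases away and had 61 reads in all. Itga8 shares 372 exonic bases with the antisense gene E030013I19Rik, near its start and not its 3' end. E030013I19Rik was at 26.0, 11.6, 6.13, 0 and 6.15 normalized counts in DOX, against 9.99, 0, 0 and 0.810 in PBS. Tcf21 lies within the antisense gene Gm10824 with no exon in common.

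Ces1d encodes a carboxylesterase, an enzyme that splits esters and lipids. It had 9 reads in all, with 2 in DOX replicate 5 and none in the other DOX libraries, against 2, 0, 1 and 4 in PBS replicates 1 to 4. The largest value was 3.24 normalized counts, in PBS replicate 4. Mouse carboxylesterase genes are close copies of each other, and whether this touched the count of Ces1d was not tested. Of 18 others 16 were at 0 in every library, and Ces2g alone was tested, at 13.8 ± 5.12 normalized counts in DOX (SD, n = 5) and 21.8 ± 6.39 in PBS (SD, n = 4), with limma adjusted p = 0.853.

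Macf1 encodes a very large linker of microtubules and actin, and Limch1 a protein known from human cells as an activator of non-muscle myosin. Macf1 was at 19.5, 56.1, 24.5, 13.4 and 9.22 normalized counts in DOX, against 41.0, 7.39, 15.1 and 21.9 in PBS. Its values spread 7.60-fold and the groups overlapped throughout, with DOX replicate 2 highest. The log2 fold change was 0.17 (standard error 0.61, 95% interval -1.12 to 1.45, limma adjusted p = 0.981). Without PBS replicate 4 it was 0.26, without DOX replicate 2 it was -0.19 and without PBS replicate 2 it was -0.23, so that single libraries set its direction. Limch1 was at 2.78, 13.5, 3.06, 2.99 and 1.02 normalized counts in DOX, against 6.99, 1.06, 0 and 4.86 in PBS, on 33 reads.

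Npnt encodes nephronectin, a matrix protein of basement membranes, and Itga8 the alpha chain of the integrin that binds it. Npnt was at 5.57, 0, 8.17, 2.99 and 6.15 normalized counts in DOX, against 4.00, 3.17, 0 and 4.86 in PBS, on 43 reads. Itga8 was at 1.86, 15.5, 1.02, 0.747 and 1.54 in DOX, against 4.00, 0, 3.79 and 0 in PBS, on 22 reads. Ligand and receptor thus both had few reads. In DOX replicate 2 Itga8 was highest, on 8 reads, and Npnt was at 0. A count of 0 in that library allows up to 3 reads, which is 5.81 normalized counts. Tcf21, a transcription factor of lung mesenchyme, was at 7.42, 17.4, 8.17, 1.49 and 1.02 in DOX, against 8.99, 8.44, 3.79 and 10.5 in PBS, on 62 reads.

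Limch1, Tcf21, Itga8 and Macf1 were all highest in DOX replicate 2. Of 5027 genes with a mean of 2 to 25 normalized counts, 720 (14.3%) were highest in that library, in which 1 read is worth 1.94 normalized counts. Its low depth and high ribosomal RNA share moved with these values, and their part was not tested.

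The signals of the set were Gdf10, a secreted factor of the TGF-beta superfamily also called BMP3B, and Wnt2, a WNT ligand that, with Wnt2b, is needed for lung formation in mice. Gdf10 was at 13.9, 3.87, 3.06, 2.24 and 1.54 normalized counts in DOX, against 14.0, 6.33, 17.7 and 1.62 in PBS, on 62 reads. DOX replicates 2 to 5 lay under PBS replicates 1 to 3, while DOX replicate 1 and PBS replicate 4 crossed over. With no filter on low values its log2 fold change was -0.85 (95% interval -2.39 to 0.70), and without PBS replicate 4 it was -1.42 (95% interval -3.04 to 0.20, limma adjusted p = 0.845). Wnt2 had no read in any library. In a single library a count of 0 allows up to 3 reads, which is 1.54 to 5.81 normalized counts depending on the library. Counts of 0 in all 9 libraries together allow a mean level of counted reads lower than that. Levels of Wnt2 below this were not detectable at this depth.

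No gene of the set was called in DOX against PBS, beside 0 of 2604 tested genes (0%). At an unadjusted p under 0.05 limma had 0 of the 3 tested genes of the set and 162 of 2604 genes (6.22%). edgeR also called none, with 148 of 2604 genes at an unadjusted p under 0.05. DESeq2, run with no filter, called none, with 463 of 17428 genes. None of the 3 tested genes of the set separated the groups, with or without PBS replicate 4. Among all tested genes 69 of 2604 (2.65%) did so with all libraries and 161 of 2447 (6.58%) without that library. The genes of the set above 0 but under the tested level also overlapped between groups. Fitted with no filter, where 3 of 17428 genes were called (0.0172%), 6 of the 9 genes had a higher and 3 a lower fitted mean in DOX, beside 51.2% of all genes with a higher one. Their median log2 fold change was 0.17, against 0.03 over all genes, and their adjusted p was 0.781 to 0.956. Without PBS replicate 4 there were 5 higher and 4 lower, beside 57% higher over all genes, with a median of 0.22, against 0.12 over all genes, where 22 of 16391 genes were called (0.134%). The width of the intervals shows what could be missed. For Slc7a10 with all libraries the interval of the filtered fit reaches down to -0.57, and for Itga8, Limch1 and Npnt those with no filter span more than 3 on the log2 scale.

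**Figure D3:**
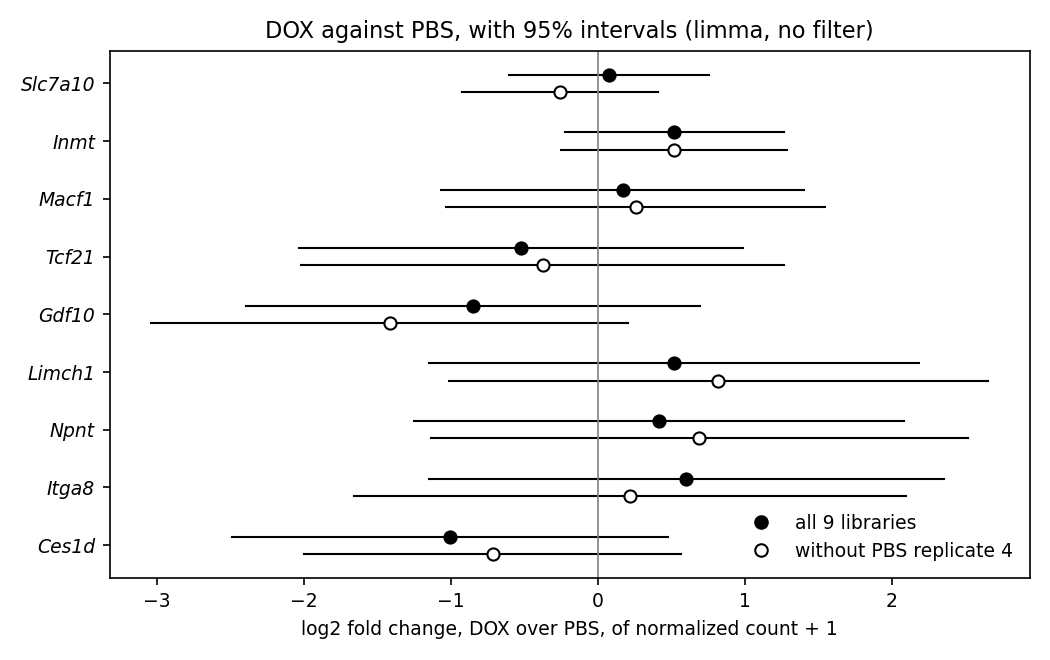
Log2 fold change (DOX over PBS, of normalized count + 1) of the 9 genes above 0, from limma with no filter on low values, with 95% intervals, for all 9 libraries (filled) and without PBS replicate 4 (open). Every interval includes 0. Slc7a10 is at 0.07 with all libraries and -0.26 without PBS replicate 4, and Gdf10 at -0.85 and -1.42.

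Summed over the set, normalized counts were 391 to 484 in DOX, against 362 to 438 in PBS replicates 1 to 3 and 256 in PBS replicate 4. The adventitial markers gave a like picture, at 1308 to 2120 in DOX, against 1258 to 1797 in PBS replicates 1 to 3 and 736 in PBS replicate 4. As a share of the adventitial sum the set was 21.7 to 31.1% in DOX and 24.4 to 34.8% in PBS, and in this ratio PBS replicate 4 no longer stood below the others. Of 16 adventitial genes 9 were tested, 6 of them higher on average in DOX, 3 lower, and none called. The highest were Gsn (gelsolin, which cuts actin filaments), Fbln1 (fibulin-1, a matrix protein), Igfbp4 and Pi16. Gsn was at 748 ± 203 in DOX and 486 ± 118 in PBS (SD, n = 5 and n = 4), with limma adjusted p = 0.761. Fbln1, Igfbp4 and Pi16 had log2 fold changes of 0.20, 0.16 and 0.01, which turned to -0.19, -0.04 and -0.11 without PBS replicate 4. Without PBS replicate 4 the adventitial count was 1 higher and 8 lower, with a median of -0.19 in place of 0.14.

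**Figure D4:**
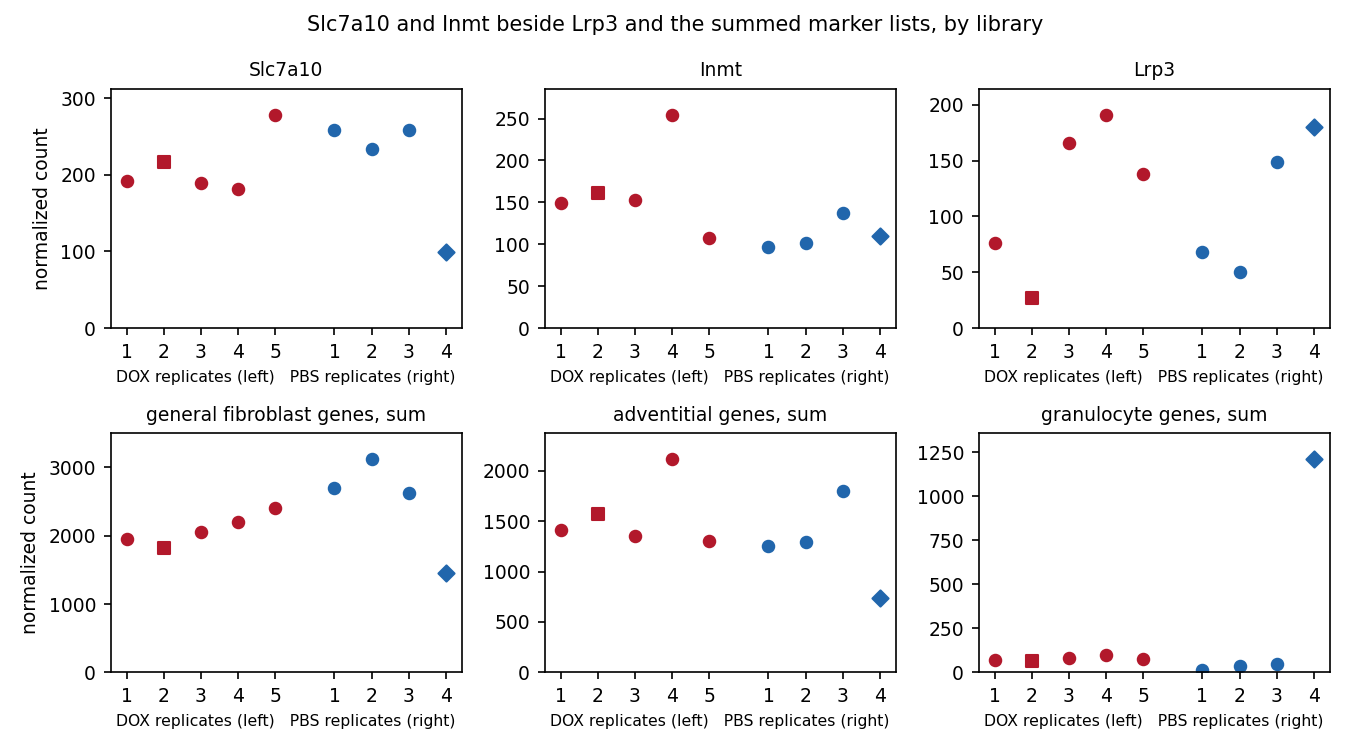
Normalized counts by library of Slc7a10, Inmt and Lrp3 (upper row) and sums of the general fibroblast, adventitial and granulocyte lists (lower row), with DOX replicates in red on the left and PBS replicates in blue on the right. PBS replicate 4 (diamond) is lowest for Slc7a10 at 98.8 and for both fibroblast sums and highest for the granulocyte sum at 1214, whereas Inmt in it is 110.2.

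Relative to the 14 general fibroblast genes, Inmt was 4.45 to 11.6% of their sum in DOX, against 3.24 to 5.26% in PBS replicates 1 to 3 and 7.61% in PBS replicate 4. Slc7a10 was 8.27 to 11.9% in DOX, against 6.83 to 9.88% in PBS. Most of this sum was Col1a1, at 1169 to 1785 normalized counts in DOX, where the sum was 1823 to 2404. In PBS replicates 1 to 3 Col1a1 was at 1888 to 2333 and the sum at 2618 to 3125. Both shares are thus mainly relative to Col1a1. The general fibroblast genes were 10 tested, 3 higher and 7 lower, with a median log2 fold change of -0.08 that was -0.56 without PBS replicate 4. The highest were Col1a1 at a log2 fold change of -0.31, the calcification inhibitor Mgp at 0.24, Fstl1 at 0.78 and Sparc at -0.04, none of them called. Col1a1 was at -0.56 without PBS replicate 4 (limma, adjusted p = 0.442), Fstl1 at 0.16, Sparc at -0.14 and Mgp at 0.34.

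Among 20 other genes known as markers of alveolar fibroblasts, all were above 0, and 6 were tested, 3 higher and 3 lower in DOX, with a median log2 fold change of 0.25. They were again 3 and 3 without PBS replicate 4, with a median of 0.06. Mfap4, a protein of elastic fibers, was at 73.8 ± 20.0 in DOX and 78.5 ± 9.62 in PBS. Spon1, the matrix protein spondin 1, was at 58.1 ± 28.0 in DOX and 34.3 ± 32.8 in PBS, and Prelp was at 25.7 ± 4.61 in DOX and 16.8 ± 12.2 in PBS. Fmo2, a flavin monooxygenase of the lung, was at 20.8 ± 11.2 in DOX and 12.9 ± 6.60 in PBS (SD, n = 5 in DOX and n = 4 in PBS throughout). Leaving PBS replicate 4 out gave log2 fold changes of 0.33 in place of 0.91 for Prelp and -0.21 in place of -0.12 for Mfap4. For Fmo2 it gave 0.72 in place of 0.62. For Spon1 it gave 1.52 in place of 1.24 (limma, unadjusted p = 0.0345, adjusted p = 0.559), the 1 gene of this list then under 0.05 unadjusted. The lowest adjusted p of this list was 0.761 with all libraries (limma).

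The pathways around each gene of the set were read as lists, in none of which a gene was called, against a median log2 fold change of -0.01 over all tested genes with 1287 higher and 1317 lower. Among methyl cycle genes related to Inmt, Mat2a, which makes the methyl donor, had a log2 fold change of -0.26 (limma, adjusted p = 0.935), which was -0.42 without PBS replicate 4. Of 15 amino acid transporters related to Slc7a10 2 were tested, the heavy chain Slc3a2 at 0.73 and Slc7a7 at -0.05, the last of which was -0.25 without PBS replicate 4.

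Of 20 cytoskeletal linkers related to Macf1 and Limch1 6 were tested, 1 higher and 5 lower, with a median of -0.52. Clasp2 at 1.07 was the higher, and Actb (-0.03) and Myh9 (-0.48) were among the lower. The tally without PBS replicate 4 was 2 higher and 4 lower, with Clasp2 at 0.54 and Actb at 0.06. Plec, a plakin that ties intermediate filaments, had the lowest p of this list and was at 15.2 ± 5.83 in DOX and 40.0 ± 14.9 in PBS (SD, n = 5 and n = 4), a log2 fold change of -1.34 (limma, adjusted p = 0.662). Of 11 partners and ligands of integrin alpha 8 there were 4 tested, 2 higher and 2 lower. These were the beta chain Itgb1 at 0.64, the ligand Fn1 at -1.04, Ltbp1 at 0.98 and Tgfb1 at -1.15. Tgfb1 was at 37.3 normalized counts in PBS replicate 4 and did not reach the tested level without that library. The list then had 3 tested, 2 higher (Itgb1 at 0.47 and Ltbp1 at 0.74) and 1 lower (Fn1 at -1.22). Of 15 other integrin alpha chains only Itga2b was tested, at -0.22 with all libraries and 0.13 without PBS replicate 4.

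Of 16 partners of TCF21 and other transcription factors of lung mesenchyme 4 were tested, 3 higher (Gli1 at 0.21, Nfib at 0.81 and Tbx2 at 0.96) and Osr1 lower at -0.61. Gli1 was at 168 normalized counts in PBS replicate 4, against 15.0 to 35.3 in the other PBS libraries, and its log2 fold change without that library was 0.92 (limma, adjusted p = 0.651). Of 30 BMP and GDF pathway genes 4 were tested, with the ligands Bmp6 at -0.06 and Bmp3 at -0.17, the receptor Bmpr2 at 1.37 and the target Id3 at 0.32. Bmp6 was at -0.45 and Bmp3 at -0.60 without PBS replicate 4. None of 18 other WNT ligands was tested and 8 were at 0, beside Wnt2. Of 21 WNT receptors, carriers and targets 4 were tested, and Lgr5 (0.84), Ccnd1 (0.59), Lrp5 (0.54) and Sfrp1 (0.38) all had a higher mean in DOX (Sfrp1 was at -0.13 without PBS replicate 4), with limma adjusted p of at least 0.807.

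Markers of other cell types were mostly too low to test. Those tested were Ly6g of granulocytes, Cd74 of immune cells, Tagln of smooth muscle, Calcrl and Egfl7 of endothelium, and Sftpc, Sftpb and Cldn18 of epithelium. Ly6g was at 64.0 ± 13.0 in DOX and 38.6 ± 29.9 in PBS, a log2 fold change of 0.98 that was 1.44 without PBS replicate 4 (limma, adjusted p = 0.427). The granulocyte marker S100a8 was at 0 to 15.3 in DOX, against 2.00 to 5.05 in PBS replicates 1 to 3 and 756 in PBS replicate 4. Epithelial markers summed to 48.3 to 179 in DOX, against 16.9 to 37.9 in PBS replicates 1 to 3 and 490.2 in PBS replicate 4. Inmt was at 110.2 normalized counts in PBS replicate 4. It was lowest of the DOX libraries in DOX replicate 5, which had the highest epithelial sum of DOX. In DOX replicates 1 to 4 it was at 149 to 255. In PBS replicates 1 to 3, where the epithelial sums were lowest, it was at 96.9 to 138. A link between Inmt and the epithelial markers was not tested. Ptprc, which encodes CD45, was at 0 to 7.17 normalized counts in DOX and 0 to 2.52 in PBS, and Epcam at 0 to 3.73 in DOX and 0 to 5.67 in PBS. The endothelial markers Kdr and Emcn and the epithelial marker Lamp3 were at 0 in every library. Among peribronchial and activated fibroblast markers the tested genes were Mustn1, Lgr5, Runx1 and Sfrp1, none called. No mesothelial or red blood cell marker was tested.

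The tested genes most like each member over the 9 libraries were taken by Pearson's r of log2(value + 1), as a description over libraries that share depth and PBS replicate 4. Only the 3 highest of 2604 tested genes were kept for each member, so that high values of r follow in part from this choice. For Inmt these were Gsn (r = 0.87, rho = 0.90), Npas2 (r = 0.85) and Ccdc107 (r = 0.84). Without PBS replicate 4 the r of Gsn was 0.96. For Slc7a10 they were Kazald1 (r = 0.94), B4galt1 (r = 0.94, rho = 0.97) and Runx1t1 (r = 0.93), and without PBS replicate 4 these fell to 0.83, 0.86 and 0.79. For Macf1 they were Dnm3os (r = 0.90), Aktip (r = 0.85) and Tob2 (r = 0.85). Inmt as a share of Slc7a10 ranged widely, at 38.4 to 140.3% in DOX, against 37.5 to 53.2% in PBS replicates 1 to 3 and 111% in PBS replicate 4.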

How the data were processed

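Bulk MARS-seq libraries of sorted mouse lung fibroblasts were analysed, 5 DOX and 4 PBS, grouped by the labels. The authors mapped reads with STAR to mm10 and counted them with HTSeq; the sources used here give neither versions nor the strand setting. The deposited signal is a gene's count scaled by 1 size factor for each library, and 100% of the values of each library were whole multiples of 1 step (tolerance 0.0001), from which reads were recovered. Repeated lines (119) were summed. Totals were 432322 to 1285816 reads, and counting error alone gave 22.6 to 44.0% at a normalized count of 10. Whether reads were collapsed by molecular tags is not given, so floors cover counting error only. Replicates of a group differed by at least 8.51 chi-square per degree of freedom, so none was a repeat deposit.

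Values entered limma (version 3.58.1, in R 4.3.3) as log2(value + 1), with the prior variance allowed to follow the mean. The 2604 genes that reached 10 in 4 libraries or more were tested, and p-values were adjusted over all of them after Benjamini and Hochberg, with calls at 0.05. Fold changes on this scale understate changes of low genes. edgeR 4.0.16, DESeq2 1.42.0 and limma-voom on recovered reads, filters, pseudocounts, scalings, library weights, a replicate block and left-out libraries were alternatives. Both limma and edgeR were also run on simulated data. Coordinates are from GENCODE M21 (98.3% of symbols above 0 matched) and promoters from RefSeq, which holds 9 of the 10 genes. The members and lists were chosen with earlier results of these data known. Named genes were the 10, genes overlapping their exons or last 1 kb, up to 4 tested genes of highest mean from each list, and the 3 most like each tested member. Pdgfra, S100a8, Ptprc, Epcam, Kdr, Emcn, Lamp3, CT010467.1, Gm34358 and Gm10824 were named outside it after their values were seen. A gene that the rule names is not reported here.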

Additional observations from a re-analysis of the deposited data

Results flagged for a closer look

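In 5 of 18 gene and group pairs a single library lay far from the rest of its group, where chance gives about 1 in 20 for continuous values. That share does not apply to counts of a few reads, and 4 of the 5 rest on 15 reads or fewer, so no excess over chance is shown. Slc7a10 was at 98.8 normalized counts in PBS replicate 4 (122 reads), against 234 to 259 in the other PBS libraries. Limch1 was at 13.5 in DOX replicate 2 on 7 reads, against 1.02 to 3.06 in the other DOX libraries, and Itga8 in the same library was at 15.5 on 8 reads, against 0.747 to 1.86. Gdf10 was at 13.9 in DOX replicate 1 on 15 reads, against 1.54 to 3.87 in the other DOX libraries. Ces1d was at 1.02 in DOX replicate 5 on 2 reads, against 0 in the other DOX libraries.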

How the results depend on the processing

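Over 24 alternatives no gene of the set was called. Inmt kept its direction in all 24, at log2 fold changes of 0.35 to 0.66 (adjusted p 0.671 to 0.986). Its unadjusted p was 0.0336 without DOX replicate 5, the 1 alternative in which a gene of the set was under 0.05. Slc7a10 turned negative in 9, at -0.26 without PBS replicate 4 (-0.26 also with no filter), -0.27 without both PBS replicate 4 and DOX replicate 2, -0.058 when scaled by total reads, -0.11 with library weights, -0.0099 by edgeR, -0.0022 by DESeq2 and -0.028 without DOX replicate 5. Leaving out 1 library at a time gave -0.26 to 0.20 for Slc7a10, -0.23 to 0.55 for Macf1 and 0.35 to 0.66 for Inmt. Macf1 turned negative in 5, at -0.20 by limma-voom, -0.23 without PBS replicate 2, -0.19 without DOX replicate 2 (-0.19 also with no filter) and -0.10 without both PBS replicate 4 and DOX replicate 2. The causes were not tested.

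Over all genes 3 were called with no filter, 22 with no filter and without PBS replicate 4, and 6 with no filter and without DOX replicate 2, the last pair of settings added after seeing the data. Genes at an unadjusted p under 0.05 numbered 459, 584 and 472 in these and 463 by DESeq2, over 16391 to 17428 genes, against 162 of 2604. With the replicate number as a block (replicates 1 to 4, without DOX replicate 5) Slc7a10 was at -0.028, Inmt at 0.66 and Macf1 at 0.43, with 0 genes called and 152 at an unadjusted p under 0.05. Deviations of same-numbered libraries correlated at 0.021 to 0.066, and 3 of 4 DOX libraries (1, 2 and 4, not 3) correlated best with the PBS library of their number, a hint from the data only. The numbers were not taken as pairs. Depth limits the 6 genes under the tested level most, at 9 to 62 reads each in all.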
